A study of Mus musculus with 6 samples.

Results

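Norrin, its receptor complex and genes of the blood-retina barrier make up a set of 10 genes, chosen by gene name among the 28627 genes of a retinal RNA-seq table: the ligand gene Ndp, the receptor genes Fzd4, Lrp5 and Tspan12, the transcription factor genes Lef1 and Sox17, the barrier genes Cldn5, Mfsd2a and Slc38a5, and Plvap, which marks leaky vessels. All 10 were in the table under 1 gene ID each, and all 10 passed the filter on low values. Retinas of littermate mouse pups were taken on postnatal day 15, after oxygen-induced retinopathy, from Emcn+/+ (n = 3) and Emcn-/- (n = 3) animals, so both genotypes had gone through the model. In this model, retinal capillaries regress in high oxygen, and vessels regrow in room air in a retina that has become hypoxic. Endomucin, the product of Emcn, is a mucin-like glycoprotein on endothelial cells. The labels used here give neither the design of the Emcn-/- allele nor whether each sample is a separate animal, so a p-value reflects only how far these samples spread, which may be technical. No group kept in room air was analysed here, so the values cannot be set against those of an untreated retina.

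Norrin is a secreted protein that Müller glia release in the retina. On endothelial cells it binds the receptor Frizzled-4 together with the co-receptor LRP5, and the tetraspanin TSPAN12 strengthens this signal. The receptor complex stabilises beta-catenin, which enters the nucleus and acts with TCF and LEF factors. In retinal vessels this pathway drives Sox17 and is needed for the deep capillary layers and for the barrier, in which claudin-5 seals the junctions, MFSD2A restrains transcytosis and PLVAP is kept low. Humans and mice that lack NDP, FZD4, LRP5 or TSPAN12 function have poorly vascularised retinas.

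Promoter windows are shown because beta-catenin acts through TCF and LEF factors, and SOX17 is an effector of the pathway. RefSeq windows on build GRCm38.p6, running from 250 bases before to 50 bases after an annotated start, matched 7 of the 10 genes. Each window was searched on both strands for 4 spellings of the TCF/LEF core, which are CTTTGAA, the variant CTTTGAT, the variant CTTTGTA and the variant CTTTGTT, and for the SOX core ACAAT, and no match of the 1 kind overlapped a match of the other. Capitals mark the matches.
Ndp (chrX:16911725-16912024, minus strand): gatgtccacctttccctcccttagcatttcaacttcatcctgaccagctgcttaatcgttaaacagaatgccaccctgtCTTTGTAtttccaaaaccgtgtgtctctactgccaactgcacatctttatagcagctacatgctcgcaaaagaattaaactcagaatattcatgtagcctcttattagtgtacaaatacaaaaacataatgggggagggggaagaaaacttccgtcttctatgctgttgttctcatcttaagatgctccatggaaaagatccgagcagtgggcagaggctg
Fzd4 (chr7:89404116-89404415, plus strand): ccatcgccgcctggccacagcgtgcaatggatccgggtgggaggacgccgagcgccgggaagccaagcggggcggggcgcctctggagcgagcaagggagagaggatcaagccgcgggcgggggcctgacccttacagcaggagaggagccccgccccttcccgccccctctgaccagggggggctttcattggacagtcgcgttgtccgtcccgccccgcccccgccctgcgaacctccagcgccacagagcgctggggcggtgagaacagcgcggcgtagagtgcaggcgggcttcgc
Lef1, upstream start (chr3:131110047-131110346, plus strand): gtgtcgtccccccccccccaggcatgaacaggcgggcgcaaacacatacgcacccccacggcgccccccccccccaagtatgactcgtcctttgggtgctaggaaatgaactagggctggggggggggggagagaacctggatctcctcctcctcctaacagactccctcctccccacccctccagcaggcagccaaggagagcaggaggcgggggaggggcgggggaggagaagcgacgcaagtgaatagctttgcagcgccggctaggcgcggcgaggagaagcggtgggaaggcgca
Lef1, start inside the gene (chr3:131156044-131156343, plus strand): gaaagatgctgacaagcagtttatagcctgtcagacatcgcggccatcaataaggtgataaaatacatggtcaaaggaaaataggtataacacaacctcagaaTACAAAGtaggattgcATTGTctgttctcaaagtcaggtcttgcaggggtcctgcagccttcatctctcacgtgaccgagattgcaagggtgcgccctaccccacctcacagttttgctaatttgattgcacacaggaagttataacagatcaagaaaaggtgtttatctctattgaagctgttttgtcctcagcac
Cldn5 (chr16:18776597-18776896, plus strand): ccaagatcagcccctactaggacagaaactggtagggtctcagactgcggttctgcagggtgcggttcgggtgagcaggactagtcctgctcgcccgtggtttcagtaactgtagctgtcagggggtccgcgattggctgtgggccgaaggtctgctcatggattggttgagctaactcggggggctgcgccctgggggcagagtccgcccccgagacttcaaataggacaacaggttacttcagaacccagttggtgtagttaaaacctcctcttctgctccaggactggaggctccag
The Ndp window held a TCF/LEF match, CTTTGTA, that begins 171 bases before the start. The Lef1 start inside the gene held CTTTGTA on the opposite strand, 147 bases before that start, and ACAAT on the opposite strand, 131 bases before it. The Fzd4 window, with 72.7% G and C, the Cldn5 window and the upstream Lef1 window held neither core, nor did the windows of Tspan12, Mfsd2a and Slc38a5. A TCF/LEF core was present in 16.9% of all 32851 promoter windows of this length and ACAAT in 31.0% of them. Among the 10 windows of the 7 matched genes, 2 held the first and 1 held the second. These are matches of letters, and the letters alone do not show that a factor binds.

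Depth ranged from 14865868 to 17087621 gene-assigned reads per library. Emcn itself stood at 80.6 to 100.5 normalised reads in the Emcn+/+ libraries and at 1.04 to 4.62 in the Emcn-/- libraries, which fits the labels (limma adjusted p = 0.0143). The rod, Müller glial and endothelial marker lists were detected in full in every group (11, 12 and 20 genes tested), as a retina should show. A pair of libraries stood apart. Emcn-/- replicate 2 had the lowest value of the 6 libraries for 18 of 20 endothelial markers. Emcn+/+ replicate 3 was the only library with female reads (17641 reads of Xist, against 1 to 5 in the others). Results that rest on either library are given with and without it.

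Per kilobase of exon, Cldn5, which encodes the main claudin of endothelial tight junctions, was the most abundant of the 10 transcripts and Lef1 the least. In Emcn+/+ retinas the mean level, in normalised reads per kilobase, was 532 for Cldn5 and 85.5 for Ndp. It was 63.7 for Tspan12, 54.9 for Fzd4, 48.1 for Plvap and 35.7 for Lrp5. Mfsd2a followed at 32.4, Slc38a5 at 21.7, Sox17 at 14.0 and Lef1 at 3.61. The Emcn-/- means followed the same order, from 474 for Cldn5 to 5.33 for Lef1. Several neighbours in this order did not separate within the Emcn+/+ libraries: Fzd4 (54.1 to 56.0) lay inside the range of Plvap (39.7 to 59.4), Lrp5 (31.7 to 38.4) inside that of Mfsd2a (21.8 to 42.9), and Slc38a5 (11.7 to 29.0) overlapped both Mfsd2a and Sox17 (10.8 to 16.5). In a whole retina these levels sum over cell types, so fewer vessel cells and less RNA per vessel cell cannot be told apart. Cldn5 stood at the 91.8th percentile of the tested genes per kilobase and Lef1 at the 4.55th.

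The comparison of Emcn-/- with Emcn+/+ retinas asked whether transcripts of the Norrin pathway and the barrier differ in regrowing vessels that lack endomucin. None of the 10 genes passed the test over all genes. The estimate was positive for 6 (Ndp, Fzd4, Lrp5, Tspan12, Lef1 and Plvap) and negative for 4 (Sox17, Cldn5, Mfsd2a and Slc38a5), with a median log2 fold change of 0.08 against 0.01 over all tested genes. The signs were not stable: leaving out Emcn-/- replicate 2 turned those of Ndp, Sox17, Cldn5 and Mfsd2a, leaving out Emcn+/+ replicate 1 those of Ndp and Mfsd2a, and leaving out Emcn-/- replicate 3 that of Tspan12. Of all 16681 tested genes, 52.0% had an estimate above 0, and 0.00599% were called, the 1 gene being Emcn. At an unadjusted limma p under 0.05, 1 of the 10 was higher (Fzd4) and 0 were lower, against 3.67% higher, 4.47% lower and 8.14% in either direction over all tested genes. edgeR also called 0 of the 10, with Fzd4 again the 1 gene under an unadjusted 0.05. DESeq2 called 0 as well, again with Fzd4 alone under an unadjusted 0.05, but left all but Cldn5 without an adjusted p , and its filtering on low means is part of that tool. Called genes made up 0.00599% of the tested genes with edgeR and 1.12% of those with an adjusted p in DESeq2.

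**Figure D1:**
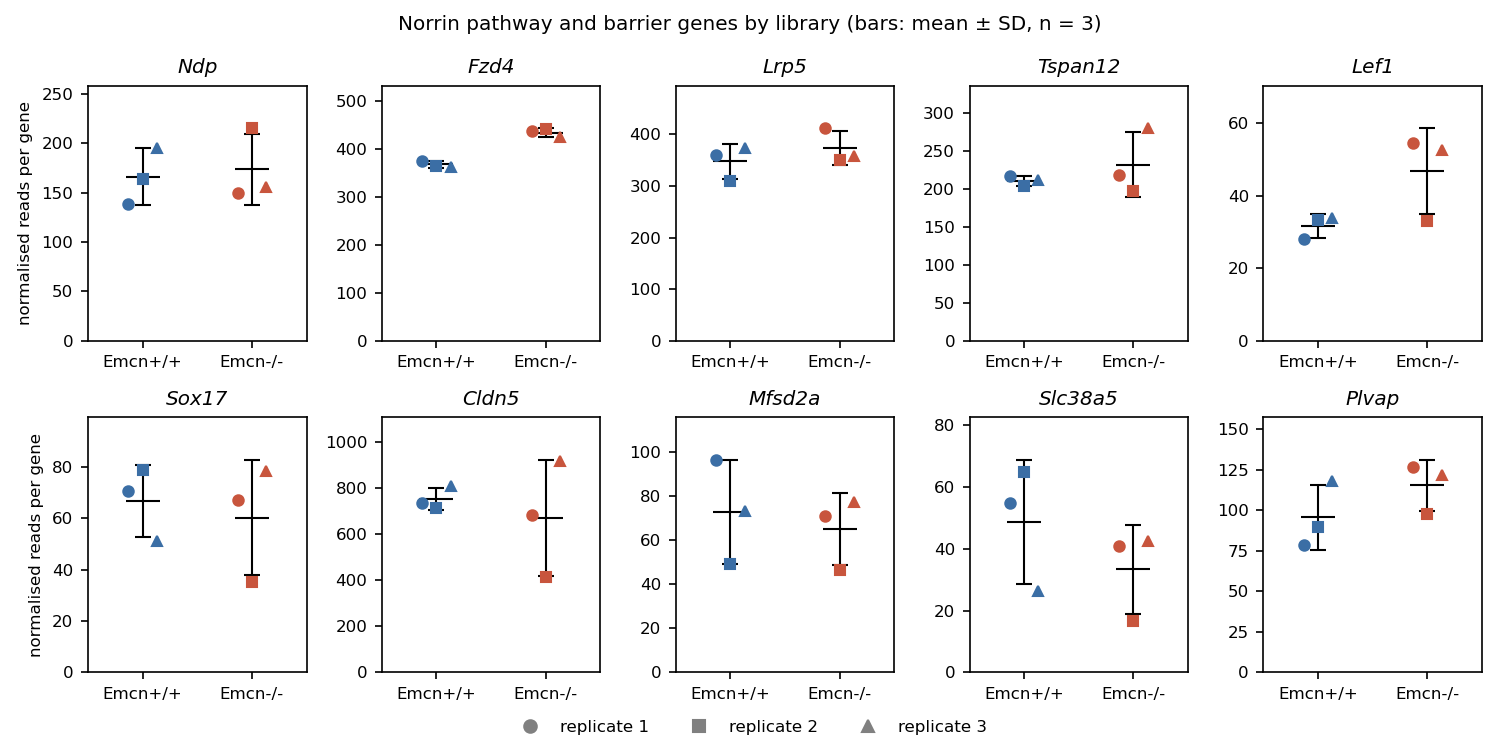
Normalised reads per gene (y axis, from 0) for the 10 genes in each library, by genotype (x axis). Symbols mark replicates and bars the mean ± SD (n = 3). Fzd4 is the 1 gene whose genotypes do not overlap, and the square of Emcn-/- replicate 2 is the lowest point for Tspan12, Sox17, Cldn5, Mfsd2a and Slc38a5.

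Ndp, the gene of the ligand Norrin (ENSMUSG00000040138, GRCm38 chromosome X, 16885521 to 16911774, minus strand), showed no difference beyond the spread of its libraries. In order of replicate, the Emcn+/+ libraries held 138, 164 and 195 normalised reads and the Emcn-/- libraries 149.9, 215 and 155. The genotypes overlapped throughout, and the highest value was that of Emcn-/- replicate 2, the library lowest in endothelial markers. Its log2 fold change, here as elsewhere after adding a pseudocount of 1, was 0.06 ± 0.18 (SE), with an unadjusted 95% interval from -0.35 to 0.47 (limma adjusted p = 0.947). Leaving out Emcn-/- replicate 2 gave -0.10, and leaving out Emcn+/+ replicate 1 gave -0.07. The 12 Müller glial markers, listed because these cells are a known source of Norrin, had a median log2 fold change of 0.11, and 7 were positive and 5 negative.

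Fzd4, the gene of the Norrin receptor Frizzled-4 (ENSMUSG00000049791, chromosome 7, 89404355 to 89413134, plus strand), was the 1 gene of the 10 whose genotypes did not overlap. It stood at 376, 366 and 364 normalised reads in Emcn+/+ and at 437, 442 and 425 in Emcn-/-. All 3 Emcn-/- libraries were above all 3 Emcn+/+ libraries, as 7.48% of all tested genes were, and 14.4% did not overlap in either direction. The means were 369 ± 6.80 and 435 ± 8.65 (SD, n = 3 each), a ratio of 1.18. The log2 fold change was 0.24 ± 0.07 (SE), with an interval from 0.07 to 0.40, and the limma adjusted p was 0.495, which missed the threshold. Fzd4 ranked 329th by p among the tested genes. Its spread within a genotype, a coefficient of variation of 1.84% in Emcn+/+ and 1.99% in Emcn-/-, was smaller than the 4.97% that counting error alone gives at this depth. The pooled counts, 1335 reads for Emcn-/- and 1091 for Emcn+/+, gave a ratio of 1.18 (95% exact Poisson interval 1.09 to 1.28, counting error only). The estimate lay between 0.23 and 0.25 in all 18 settings, with limma or edgeR adjusted p from 0.208 to 0.943. In Emcn-/- replicate 2 Fzd4 was at its highest, although 18 of the 20 endothelial markers were at their lowest there.

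Lrp5, the gene of the co-receptor (ENSMUSG00000024913, chromosome 19, 3584828 to 3686564, minus strand), did not pass the test. The Emcn+/+ libraries held 360, 309 and 373 normalised reads, and the Emcn-/- libraries 411, 349.6 and 358, so they overlapped. Its log2 fold change was 0.10 ± 0.11 (interval -0.14 to 0.34, limma adjusted p = 0.809). It ran from 0.02 without Emcn+/+ replicate 2, and 0.03 without Emcn-/- replicate 1, to 0.16 without Emcn+/+ replicate 3. Tspan12, the gene of the tetraspanin that strengthens Norrin signalling (ENSMUSG00000029669, chromosome 6, 21771395 to 21852515, minus strand), stood at 217, 204 and 212 in Emcn+/+ and at 219, 197 and 280.0 in Emcn-/-. Emcn-/- replicate 3 alone was high, and the others lay together. The log2 fold change was 0.12 ± 0.14 (interval -0.19 to 0.43, limma adjusted p = 0.827). It was -0.02 without that library, and without Emcn-/- replicate 2 it was 0.23 with no overlap of the genotypes, where 11.7% of all tested genes lay higher without overlap. The exons of Tspan12 share 98 bases with the antisense gene Gm30270, which averaged 0.336 normalised reads.

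Lef1, which encodes a transcription factor that acts with beta-catenin and is itself a target of the pathway (ENSMUSG00000027985, chromosome 3, 131110471 to 131224356, plus strand), had the largest positive estimate of the 10. The Emcn+/+ libraries held 28.0, 33.4 and 33.9 normalised reads, and the Emcn-/- libraries 54.5, 33.2 and 52.7. Both other Emcn-/- libraries lay well above the Emcn+/+ range, while Emcn-/- replicate 2 lay within it. This gave a log2 fold change of 0.52 ± 0.25 (interval -0.06 to 1.09, limma adjusted p = 0.643). Without Emcn-/- replicate 2 it was 0.74 (limma adjusted p = 0.857), with no overlap of the genotypes, as for 11.7% of all tested genes, and without Emcn-/- replicate 1 it was 0.39. Counts were low, 94 reads in Emcn+/+ and 145 in Emcn-/-, a ratio of 1.49 (95% interval 1.14 to 1.95, counting error only). Lef1 shares 1208 exonic bases with the antisense gene Gm43352, which averaged 1.09 normalised reads. Emcn also lies on chromosome 3, and the part of sequence carried along with the Emcn-/- allele in the Lef1 values was not tested.

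Sox17, which encodes an endothelial transcription factor downstream of Norrin and Frizzled-4 (ENSMUSG00000025902, chromosome 1, 4490931 to 4497354, minus strand), had an estimate of the opposite sign to Lef1. It stood at 70.5, 78.8 and 51.3 normalised reads in Emcn+/+ and at 67.2, 35.3 and 78.6 in Emcn-/-. Emcn-/- replicate 2 was the lowest library and Emcn+/+ replicate 3 the next, and the remaining 4 overlapped. The log2 fold change was -0.20 ± 0.31 (interval -0.90 to 0.50, limma adjusted p = 0.882), and leaving out 1 library moved it between -0.43 (without Emcn-/- replicate 3) and 0.14 (without Emcn-/- replicate 2). Sox17 shares 804 exonic bases with the antisense gene Gm37587, which was not analysed here.

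Cldn5 (ENSMUSG00000041378, chromosome 16, 18776847 to 18778262, plus strand) stood at 736, 715 and 808 normalised reads in Emcn+/+ and at 682, 414 and 917 in Emcn-/-. The Emcn+/+ libraries lay close together, and the Emcn-/- libraries reached both below and above them. The coefficient of variation was 6.50% in Emcn+/+ and 37.5% in Emcn-/-, against 3.73% from counting error. The log2 fold change was -0.24 ± 0.24 (interval -0.77 to 0.30, limma adjusted p = 0.803), and it was 0.07 without Emcn-/- replicate 2. Without Emcn-/- replicate 3 it was -0.50 and the genotypes did not overlap, while 10.9% of all tested genes lay lower and 12.2% higher without overlap in that setting. Mfsd2a, which encodes a lipid transporter that restrains transcytosis across barrier endothelium (ENSMUSG00000028655, chromosome 4, 122946850 to 122961188, minus strand), stood at 96.5, 49.1 and 73.2 in Emcn+/+ and at 71.1, 46.7 and 77.6 in Emcn-/-. Its genotypes overlapped fully (-0.14 ± 0.29, interval -0.79 to 0.51, limma adjusted p = 0.914), and its sign changed when 1 library was left out, to 0.08 without Emcn+/+ replicate 1 or without Emcn-/- replicate 2.

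Slc38a5, which encodes an amino acid transporter and is a known target of Norrin signalling in retinal vessels (ENSMUSG00000031170, chromosome X, 8271133 to 8280179, plus strand), had the lowest estimate of the 10. It stood at 55.0, 64.9 and 26.2 normalised reads in Emcn+/+ and at 40.9, 16.6 and 42.5 in Emcn-/-. Emcn+/+ replicates 1 and 2 were the highest, and Emcn+/+ replicate 3 lay among the Emcn-/- libraries. The estimate on the log2 scale was -0.55 ± 0.44 (interval -1.54 to 0.44, limma adjusted p = 0.754). Without Emcn+/+ replicate 3 it was -0.93 (limma adjusted p = 0.258), with no overlap of the genotypes. Without that library 16.9% of all tested genes lay lower without overlap, and 0.905% were called, none of them among the 10. Without Emcn-/- replicate 2 it shrank to -0.12. The counts, 104 reads in Emcn-/- against 147 in Emcn+/+, gave a ratio of 0.681 (95% interval 0.525 to 0.882, counting error only).

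Plvap, the gene of the protein of endothelial diaphragms (ENSMUSG00000034845, chromosome 8, 71497765 to 71511752, minus strand), stood at 78.8, 89.9 and 118 normalised reads in Emcn+/+ and at 127, 97.5 and 122 in Emcn-/-. Emcn+/+ replicate 3 was near the Emcn-/- values, and both other Emcn+/+ libraries were below all of them. The log2 fold change was 0.28 ± 0.19 (interval -0.15 to 0.71, limma adjusted p = 0.713). Without Emcn+/+ replicate 3 it was 0.44 (limma adjusted p = 0.256), and without Emcn-/- replicate 2 it was 0.40 (0.857). The genotypes did not overlap in either case, in which 19.0% and 11.7% of all tested genes lay higher without overlap. Without Emcn+/+ replicate 1 the estimate was 0.15, and without Emcn-/- replicate 1 it was 0.21. Read per library as a share of Cldn5, Plvap was 10.7%, 12.6% and 14.6% in Emcn+/+ and 18.6%, 23.6% and 13.3% in Emcn-/-. The mean share was 12.6% ± 1.95 and 18.5% ± 5.13 (SD, n = 3; exact permutation p = 0.2, 2-sided, where 0.1 is the smallest that 3 against 3 allows). This share was chosen with the values of both genes known. Its highest value, 23.6%, was that of Emcn-/- replicate 2, where Cldn5 was the lowest of the 6 libraries (414 normalised reads). Without that library the Emcn-/- shares were 18.6% and 13.3%, the latter within the Emcn+/+ range. Vessels of the choroid, which lies behind the pigment epithelium, are known to carry PLVAP, and 9 of 9 tested pigment epithelium markers had positive estimates, with a median of 0.83 and 0 called. Of these 9, 8 were higher at an unadjusted limma p under 0.05, against 3.67% of all tested genes. Higher values without overlap were found for 4 of them, against 7.48% of all tested genes. The summed level of the list was 3735 to 7825 normalised reads in Emcn+/+ and 8820 to 12270.3 in Emcn-/-. None of the 10 listed markers was at 0 in every library, and their part in the Plvap values was not tested.

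**Figure D2:**
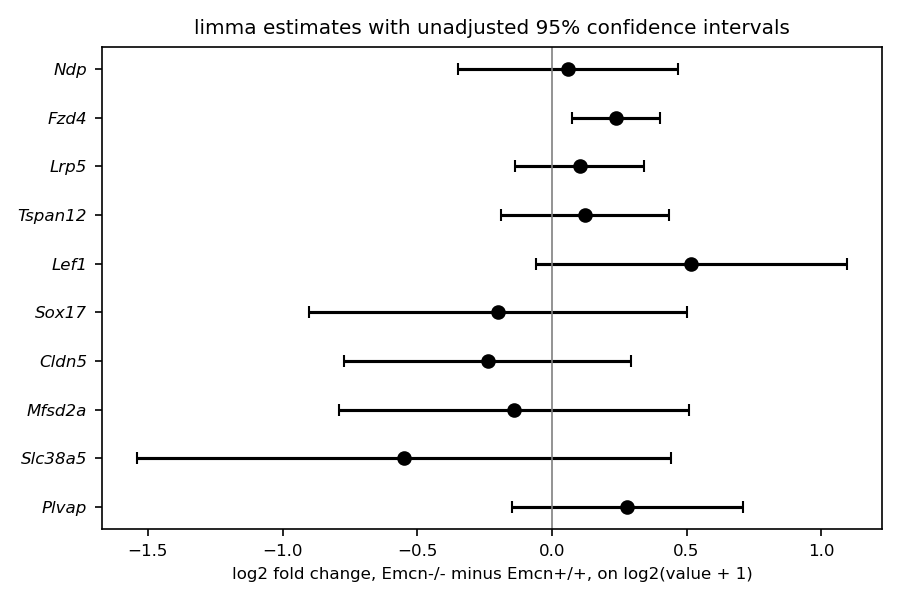
Log2 fold change of each gene, Emcn-/- minus Emcn+/+ (x axis, limma on log2(value + 1)), with unadjusted 95% intervals (n = 3 each). The interval of Fzd4 (0.07 to 0.40) lies above 0, and the 9 others include 0.

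The intervals show how large a difference these libraries leave possible. For Lrp5, Tspan12 and Ndp they end at 0.34, 0.43 and 0.47 on the log2 scale, while for Slc38a5, Sox17 and Mfsd2a they extend down to -1.54, -0.90 and -0.79. A missed threshold therefore does not show that the barrier genes were equal in the 2 genotypes.

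The library labelled Emcn-/- replicate 2 stood apart for most of the 10 genes. There, 5 of the 10 had their lowest value (Tspan12, Sox17, Cldn5, Mfsd2a and Slc38a5) and 2 their highest (Ndp and Fzd4). Of all tested genes, 15.5% had their lowest and 16.4% their highest value in that library. Against the mean of the other 5 libraries, Slc38a5 was lower there by -1.35 on the log2 scale, Sox17 by -0.94, Cldn5 by -0.89 and Mfsd2a by -0.61. The median of the 20 endothelial markers was -0.63 and that of the mural cell markers -0.52. Lef1 stood at -0.23, Tspan12 at -0.19, Plvap at -0.11 and Lrp5 at -0.04, less far from the other libraries than the endothelial median, while Fzd4 stood at 0.17 and Ndp at 0.43. The median of all tested genes was 0.01 and that of the Müller glial markers 0.07. This library was singled out after its values were seen, so these differences are a description.

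**Figure D3:**
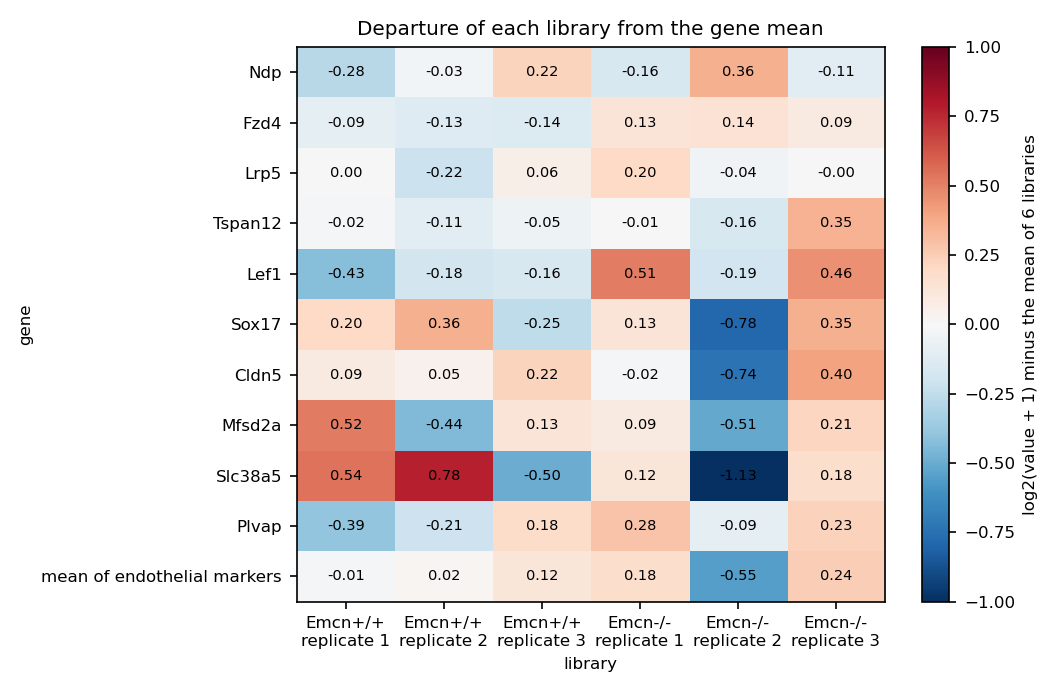
Log2(value + 1) of each gene in each library, minus its mean over the 6 libraries (colour and printed value), with the mean of 20 endothelial markers in the bottom row. In Emcn-/- replicate 2 the endothelial mean was -0.55, with Slc38a5 at -1.13, Sox17 at -0.78, Cldn5 at -0.74 and Mfsd2a at -0.51, but Fzd4 at 0.14 and Ndp at 0.36.

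Set against the endothelial marker mean of the same library, Lef1 was the 1 gene whose genotypes separated. On this ratio scale (log2 of the gene minus the mean log2 of the 20 markers) the Emcn+/+ libraries stood at -2.81, -2.60 and -2.68, and the Emcn-/- libraries at -2.06, -2.04 and -2.18. All 3 Emcn-/- libraries were above all 3 Emcn+/+ libraries on this scale. For replicate 2 this rests on the reference: its Lef1 value, 33.2 normalised reads, lay within the Emcn+/+ range of 28.0 to 33.9. The endothelial mean of that library was -0.55 from the mean of the 6 libraries. Whether the Lef1 reads come from endothelial cells was not tested. The difference was 0.60 (means -2.70 ± 0.11 and -2.10 ± 0.08, SD, n = 3), with an exact permutation p of 0.1, 2-sided, the smallest that 3 against 3 allows. Over all tested genes, 1.94% lay higher and 0.869% lower without overlap on this scale. With the 5 markers Pecam1, Cdh5, Tie1, Tek and Erg alone as the reference the difference of Lef1 was 0.75, while Cldn5 stood at -0.004, Sox17 at 0.03 and Mfsd2a at 0.09. With all 20 markers as the reference again, here and below, Plvap was 0.36 higher (exact permutation p = 0.2). The relative values of Cldn5 (-0.15, exact permutation p = 0.4), Sox17 (-0.12, 0.7) and Mfsd2a (-0.06, 0.8) overlapped. So did those of Slc38a5 (-0.46, 0.4), and those of Fzd4 overlapped too (0.32, 0.3), with Emcn-/- replicate 2 at 1.66 and the other libraries between 0.70 and 0.92. With the endothelial mean as a term in the limma fit, Lef1 had a log2 fold change of 0.59 (limma adjusted p = 0.687) and did not pass.

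**Figure D4:**
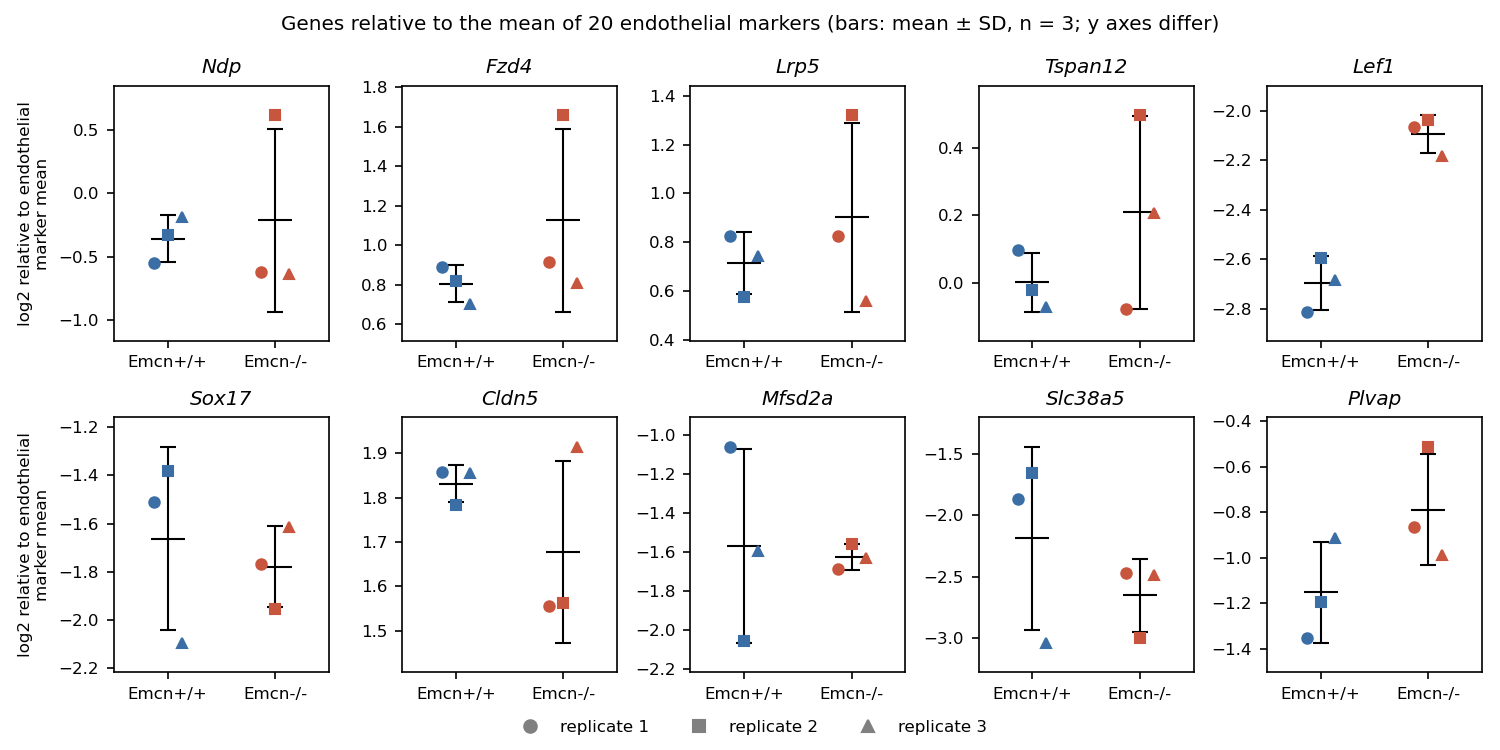
Log2 level of each gene relative to the mean of 20 endothelial markers in the same library (y axes differ), by genotype (x axis). Symbols mark replicates and bars the mean ± SD (n = 3). Lef1 lies between -2.81 and -2.60 in Emcn+/+ and between -2.18 and -2.04 in Emcn-/-, while the other 9 overlap.

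Other genes of the receptor level did not pass the test either. Of 24 tested ligands, receptors and partners, the 4 members Ndp, Fzd4, Lrp5 and Tspan12 included, 18 had positive and 6 negative estimates, with a median of 0.09 and 0 called. Fzd3, a Frizzled best known for axon guidance, stood at 929, 844 and 804 normalised reads in Emcn+/+ and at 724, 692 and 671 in Emcn-/-. These values did not overlap, in the opposite direction to Fzd4 (-0.30 ± 0.07, limma adjusted p = 0.400). Lrp6, the close relative of Lrp5, went from 1496 ± 48.3 to 1348 ± 73.2 without overlap (-0.15 ± 0.06, limma adjusted p = 0.569). Lower values without overlap were found for 6.94% of all tested genes. The Wnt7 ligand genes Wnt7a and Wnt7b, which serve the brain barrier, did not pass the filter on low values and were not tested, Wnt7b being above 12.01 normalised reads in Emcn+/+ replicate 1 alone (115).

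Inside the cell, none of the beta-catenin core passed the test. Of 25 tested genes, 9 were positive and 16 negative, with a median of -0.04 and 0 called. At an unadjusted limma p under 0.05, 4 were lower and 0 higher, against 4.47% and 3.67% of all tested genes. Without overlap, 4 were lower and 1 higher, against 6.94% and 7.48% of all tested genes. Ctnnb1, the gene of beta-catenin, stood at 5421, 5288 and 5535 normalised reads in Emcn+/+ and at 5593, 5349 and 5568 in Emcn-/- (0.02 ± 0.05, limma adjusted p = 0.916). The co-activator gene Crebbp had the smallest p of the list (-0.34 ± 0.06, limma adjusted p = 0.305), followed by its relative Ep300 (-0.22 ± 0.05, 0.400). The others of the 4, named after their values were seen, were Bcl9l, a beta-catenin co-activator gene (-0.20 ± 0.06, 0.479), and Apc, a gene of the complex that degrades beta-catenin (-0.26 ± 0.08, 0.514). Crebbp passed with DESeq2 (adjusted p = 0.00459). Exonic length was 13540 bases for Crebbp, 14273 for Ep300, 7998 for Bcl9l and 16116 for Apc. Fzd3 and Lrp6, lower without overlap at the receptor level, had 12804 and 13672 bases. Ctbp1, the core gene higher without overlap, had 4476. The long core genes Csnk1a1 (10502) and Btrc (16908) had overlapping genotypes. Tmem131l and Pard3, described below as lower without overlap, had 11726 and 14506. Genes described below that were higher without overlap had 2408 (Notum), 2427 (Wif1), 3506 (Slc2a1) and 3910 (Slc22a8). These lengths were looked up after the values were seen, and the part of length in the values was not tested.

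None of the target genes of beta-catenin passed the test. Axin2, the most widely used readout of the pathway, stood at 519, 658 and 567 normalised reads in Emcn+/+ and at 569.6, 613 and 556 in Emcn-/- (0.00 ± 0.10, limma adjusted p = 0.995). Of 15 tested targets, 10 were positive and 5 negative, with a median of 0.08 and 0 called. Notum, a secreted enzyme that inactivates Wnt ligands, stood at 29.0, 12.98 and 26.2 in Emcn+/+ and at 41.9, 42.5 and 50.8 in Emcn-/- without overlap (1.03 ± 0.32, limma adjusted p = 0.499), and Nkd2, an inhibitor of Dishevelled, had 0.78 ± 0.40 (0.649). Of 13 tested secreted and membrane inhibitors of Wnt signalling, 9 were positive and 4 negative, with a median of 0.17 and 0 called. Wif1, a Wnt-binding inhibitor, was at 7.41 to 13.1 in Emcn+/+ and 19.7 to 27.7 in Emcn-/- (1.10 ± 0.33, limma adjusted p = 0.479). Tmem131l was lower without overlap (-0.47 ± 0.16, 0.522).

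Among further barrier genes, 0 passed. The 9 tested transcription factors of barrier endothelium, Sox17 and Lef1 included, split into 5 positive and 4 negative with a median of 0.01. Foxc1, an endothelial and mural forkhead factor, had 0.30 ± 0.22 (limma adjusted p = 0.737) and Ppard, a nuclear receptor, -0.04 ± 0.09 (0.918). Of 15 tight junction genes, 8 were positive and 7 negative (median 0.04). The occludin gene Ocln had 0.33 ± 0.18 (limma adjusted p = 0.670) and the polarity gene Pard3 -0.15 ± 0.08 (0.682), the latter without overlap. Of 21 transporters and related barrier genes, 12 were positive and 9 negative (median 0.04). The glucose transporter gene Slc2a1, which photoreceptors and pigment epithelium also express, stood at 4892, 4527 and 5205 normalised reads in Emcn+/+ and at 5853, 5592 and 5839.8 in Emcn-/- without overlap (0.24 ± 0.06, limma adjusted p = 0.400). The organic anion transporter gene Slc22a8 had 0.83 ± 0.29 (0.526), also without overlap. For the caveolar and transcytosis genes, 9 of 9 were positive, Plvap included, with a median of 0.20, against 52.0% of all tested genes with a positive estimate. The smallest p in that list belonged to the caveolin gene Cav2 (0.20 ± 0.09, limma adjusted p = 0.604) and the cavin gene Cavin1 (0.37 ± 0.19, 0.657), and the genotypes overlapped for all 9. Marker lists of other cells also had positive estimates throughout: 6 of 6 ciliary and iris markers (median 0.57, summed level 3102 to 4445 normalised reads in Emcn+/+ and 5310.0 to 5568 in Emcn-/-), 9 of 9 pigment epithelium markers (0.83) and 11 of 11 rod markers (0.10), with 0 called. At an unadjusted limma p under 0.05, 4 ciliary and iris, 8 pigment epithelium and 1 rod marker were higher and 0 lower. Without overlap, 3, 4 and 4 of these lists were higher and 0 lower. Over all tested genes the shares higher were 3.67% and 7.48%. The part of these cells in the values of the caveolar genes, or in those of Slc22a8, Notum and Wif1, was not tested. The 20 endothelial markers had a median of -0.04, with 7 positive and 13 negative, and their summed level was 8541 to 8994 normalised reads in Emcn+/+ and 6043 to 8968 in Emcn-/-. Their mean log2 level, centred over the 6 libraries, was -0.01, 0.02 and 0.12 in Emcn+/+, in order of replicate. In Emcn-/- it was 0.18, -0.55 and 0.24, so only replicate 2 lay below the Emcn+/+ libraries and both others lay above them.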

How the data were processed

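Poly-A RNA from 6 retina samples, 1.3 µg each per the labels' protocols, was sequenced. The genome build was GRCm38, per the submitters' processing notes. The deposited values are a read signal per gene, not scaled to length. The aligner, the counter and strand use are not given in the sources, so antisense reads cannot be told apart. In every library 100% of values equalled whole reads times 1 constant (within 0.001 of a read, scaled up for abundant genes), which gave the read counts. The test was limma 3.58.1 under R 4.3.3 (trended variance, log2(value + 1), 2-sided, Benjamini-Hochberg over the 16681 genes that edgeR's filter kept at a minimum count of 10, threshold 0.05). edgeR 4.0.16 and DESeq2 1.42.0 on recovered reads were alternatives, calling 1 and 72 genes. Positions and exonic lengths are from GENCODE M21. The genes and lists were chosen with earlier results of these data known. All 10 genes are named, plus the 2 other genes of smallest p in each pathway or barrier list; Ctnnb1 and Axin2 were added after their values were seen. The limma and edgeR code was tested on simulated data.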

Additional observations from a re-analysis of the deposited data

How the results depend on the processing

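None of the 10 genes was called in any of the 18 settings (DESeq2 gave only Cldn5 an adjusted p), and Fzd4, Lrp5, Lef1, Plvap and Slc38a5 kept their sign in all of them. With 1 library left out, estimates ran from -0.10 to 0.18 for Ndp, -0.020 to 0.23 for Tspan12, -0.43 to 0.14 for Sox17, -0.50 to 0.072 for Cldn5 and -0.40 to 0.085 for Mfsd2a, each changing sign, and the cause was not tested. The number of the 10 without overlap ran from 1 to 4 higher and from 0 to 1 lower. It was 4 higher (Fzd4, Lef1, Tspan12 and Plvap) without Emcn-/- replicate 2, against 11.7% of all tested genes. Without Emcn+/+ replicate 3 it was 2 higher (Fzd4 and Plvap) and 1 lower (Slc38a5), against 19.0% and 16.9%. Without Emcn-/- replicate 3 it was 1 higher (Fzd4) and 1 lower (Cldn5), against 12.2% and 10.9%. Of all genes, limma called 0 higher and 1 lower, and with 1 library left out 0 to 38 and 0 to 113, highest without Emcn+/+ replicate 3. With Emcn+/+ replicate 1, Emcn+/+ replicate 2 or Emcn-/- replicate 1 left out in turn, 0 genes were called, so Emcn itself was missed. In those settings an uncalled gene among the 10 therefore says little. DESeq2 called 13 and 59, and sex as a term 40 and 113. Emcn+/+ replicate 3 was the only female library, so sex could not be separated from that library. The estimates of the 10 with sex as a term equalled those with that library left out, and differed from those of the main fit (Slc38a5 -0.93 against -0.55). The title numbers form 2 series that each hold both genotypes. With the series as a term limma called 0 higher and 1 lower, and Fzd4 had an adjusted p of 0.259. Leaving out both libraries of the second series (replicate 3 of each genotype), chosen after seeing the data, gave 8 and 34, with Tspan12 at -0.017, Slc38a5 at -1.16, Sox17 at -0.60, Cldn5 at -0.45, Mfsd2a at -0.25 and Ndp at 0.25. No paired analysis was possible because the labels give no replicate numbers that link single samples across genotypes. Low counts limit Lef1 (27 to 57 reads per library) and Slc38a5 (16 to 70).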

Other observations

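Emcn+/+ replicate 1 had the highest values of 4 Wnt pathway genes, picked out after the values were seen. Wnt7b, a Wnt ligand gene, stood at 115 normalised reads in that library and at 2.92 to 12.01 in the other 5. Wnt7a, its relative, was at 14.5 there and at most 1.04 elsewhere, and Rspo1, which encodes a Wnt agonist, at 20.7 there and at most 1.09 elsewhere. Sfrp1, a secreted Wnt inhibitor gene, was at 609.8 there and between 146 and 359.5 in the others. The cause was not tested.

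Across the 6 libraries, the mean of the 9 genes other than Ndp (each as log2(value + 1), centred) was followed most closely by Rgs5, a pericyte gene, among 11615 genes with a mean of at least 100 normalised reads (Pearson correlation 0.99). The next were 1700030J22Rik (0.99), Gm10123 (0.98), the transcription factor gene Foxp1 (0.98) and the focal adhesion gene Tns1 (0.98). These are the highest of many correlations over 6 libraries that share Emcn-/- replicate 2 as their lowest point, and are given as a description.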
